A study of Mus musculus with 8 samples.

Results

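The genes described here are 38 complement and coagulation factors picked by symbol from the 34465 genes of a mouse liver RNA-seq table. All 38 were found. RNA from whole liver was sequenced in 8 libraries, 2 for each of 4 groups of mice of the strain 129S4/SvJae/FVB, aged 3 months. All mice carried floxed alleles of the platelet-derived growth factor receptor b-PDGFR (b-PDGFR fl/fl, gene Pdgfrb). The groups were GFAP Cre +/- (Cre-positive) livers taken 72 h after partial hepatectomy, GFAP Cre -/- (Cre-negative) livers taken 72 h after partial hepatectomy, Cre-positive sham-operated livers and Cre-negative sham-operated livers. Cre was driven by the GFAP promoter, and the submitters describe the deletion as specific to hepatic stellate cells, while the RNA came from the whole organ. Whether the 2 libraries of a group are separate animals is not stated in the labels, so p-values measure only the spread between these samples.

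Complement and coagulation are protease cascades of the blood plasma, and hepatocytes make most of their proteins. In complement, the classical and lectin pathways activate C4 and C2, the alternative pathway amplifies cleavage of C3, and C5 to C9 assemble a pore in the target membrane. In coagulation, the contact factors and factor VII start chains of cleavage that end with thrombin turning fibrinogen into fibrin, which plasmin later dissolves. Partial hepatectomy removes part of the liver, and the remaining hepatocytes divide while they go on supplying these proteins.

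The promoters of C6, which fell after hepatectomy, and of the fibrinogen chain genes Fga, Fgb and Fgg, which lie together on chromosome 3, are shown as the 250 bases before the start of each gene. They come from RefSeq (GRCm38.p6), where 30 of the 38 genes had an entry. Capitals mark matches, on either strand, to the HNF1 core GTTAAT, the C/EBP motif TTGCNNAA or the IL-6 response element CTGGGAA.
C6, chr15:4726960-4727209, plus strand: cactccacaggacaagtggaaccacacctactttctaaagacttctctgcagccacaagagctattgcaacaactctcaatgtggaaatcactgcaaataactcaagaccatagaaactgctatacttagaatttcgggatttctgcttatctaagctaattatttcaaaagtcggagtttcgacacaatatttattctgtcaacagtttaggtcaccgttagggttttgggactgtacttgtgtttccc
Fga, chr3:83025903-83026152, plus strand: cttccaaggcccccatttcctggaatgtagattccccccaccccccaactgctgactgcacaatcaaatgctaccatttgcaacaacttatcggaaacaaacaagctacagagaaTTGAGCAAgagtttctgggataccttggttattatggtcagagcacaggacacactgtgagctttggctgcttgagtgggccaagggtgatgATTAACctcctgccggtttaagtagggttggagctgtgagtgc
Fgb, chr3:83049864-83050113, minus strand: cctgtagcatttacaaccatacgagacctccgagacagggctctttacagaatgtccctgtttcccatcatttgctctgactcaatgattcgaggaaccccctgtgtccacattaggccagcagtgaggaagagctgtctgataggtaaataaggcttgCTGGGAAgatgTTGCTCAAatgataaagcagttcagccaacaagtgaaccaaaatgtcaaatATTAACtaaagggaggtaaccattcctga
Fgg, chr3:83007474-83007723, plus strand: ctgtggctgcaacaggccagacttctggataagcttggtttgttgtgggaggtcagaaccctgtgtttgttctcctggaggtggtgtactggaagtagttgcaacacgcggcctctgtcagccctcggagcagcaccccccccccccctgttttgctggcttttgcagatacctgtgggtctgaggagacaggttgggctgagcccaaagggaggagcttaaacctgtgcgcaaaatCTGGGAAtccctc
The HNF1 core stood 43 bases before the start of Fga and 29 before that of Fgb, and the C/EBP motif 135 and 80 bases before. The IL-6 element stood 91 bases before Fgb and 13 before Fgg. None of these 3 motifs, nor the letters TATAAA, was in the C6 window. Among the 30 windows the HNF1 core occurred in 9, against 6.52% of 27025 mouse promoters. The C/EBP motif occurred in 9 against 9.55%, the IL-6 element in 4 against 9.08% and TATAAA in 3 against 13%. A match is a description of the sequence and not a measured site.

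Values are the deposited normalized signal per gene, which is neither a read count nor plain FPKM, so read depth is unknown. Library sums lay between 8617660 and 11583800. Isoforms of equal rank had close values in all 8 libraries far down the ranking (at rank 20000, between 15.7 and 16.3), but less close ones at the top. At rank 1000 they lay between 1037 and 1262, and at rank 10 between 71050 and 100400 (a ratio of 1.41). Between 15.4% and 15.8% of isoforms over 100 shared their exact value with another library. Plg is an example among the members, at 43327 in both Cre-positive sham replicate 2 and Cre-negative sham replicate 2. Pdgfrb, the targeted gene, was at 63.1 and 99.9 in Cre-positive and 123 and 70.5 in Cre-negative hepatectomy livers, against 59.4 and 46 in Cre-positive and 49.8 and 63.3 in Cre-negative sham livers. A lower level in Cre-positive livers was not shown by the whole-organ signal (log2 fold change -0.23, SE 0.39, adjusted p = 0.769 after hepatectomy, and -0.10, SE 0.39, adjusted p = 1 in sham, limma). Cre-positive hepatectomy replicate 2 stood apart by GC content, as given below with the values of the members it touches.

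After hepatectomy, averaged over both genotypes, 2 of the 37 complement and coagulation genes without an exact 0 fell and 0 rose, by limma with a Benjamini-Hochberg adjusted p under 0.05. The 2 were C6, a component of the terminal pore, and Masp1, a protease of the lectin pathway. Over all 16405 genes of this comparison 4.69% passed, 0.927% falling and 3.77% rising. The median log2 fold change of the 37 genes was -0.36, against 0.12 for all genes tested, and 31 of the 37 were negative. All 4 hepatectomy libraries lay below all 4 sham libraries for 8 members (C1s, Masp1, Hc, C6, C8b, F2, Proc and Klkb1), a pattern that 6.20% of all genes showed. They lay above all sham libraries for 1 member, Kng1, against 11.2% of all genes. In whole liver, fewer cells of a type and less RNA per cell cannot be told apart. With 1 library left out, the median member change ranged from -0.54 to -0.24. Fewer members fell whichever library was left out, except Cre-positive hepatectomy replicate 1, without which more fell. The share of all genes that fell was below 0.927% without any 1 sham library or either Cre-negative hepatectomy library. It was above 0.927% without either Cre-positive hepatectomy library, and highest without replicate 1 of that group.

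Within Cre-negative livers, 0 of 37 members passed the threshold, against 1.58% of all genes (1.38% rose and 0.201% fell). Without adjustment 12 had a p under 0.05, 11 of them lower (6.23% of all genes) and 1 higher (15.3% of all genes). Their median log2 fold change was -0.77, against 0.21 for all genes, with 31 of 37 negative. Both hepatectomy libraries lay below both sham libraries for 28 members, against 23.3% of all genes, and above them for 3 (C2, C8g and Kng1), against 39.7% of all genes. Leaving out Cre-positive hepatectomy replicate 1, which enters this comparison only through the shared spread, gave 7 that fell (3.40% of all genes), and leaving out Cre-positive hepatectomy replicate 2 gave 5 (3.15% of all genes).

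Within Cre-positive livers, 0 of 37 members passed, against 1.04% of all genes (0.908% rose and 0.128% fell), and 2 had an unadjusted p under 0.05 (Hc and C6, both lower), against 5.31% of all genes lower and 13.7% in either direction. The median log2 fold change was -0.26, against 0.03 for all genes. Hepatectomy libraries lay below sham for 11 members (19.5% of all genes) and above for 5 (Mbl2, C3, Cfp, C4bp and Kng1), against 23.9% of all genes. The replicates of this group differed by a median ratio of 1.503 over the members, with F9 the widest at 7.88, and of 1.67 over all genes. The members' median ratio was 1.52 in Cre-negative hepatectomy, 1.14 in Cre-positive sham and 1.17 in Cre-negative sham livers. With Cre-positive hepatectomy replicate 2 as its only library, 9 members fell, where 12.4% of all genes fell.

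**Figure D1:**
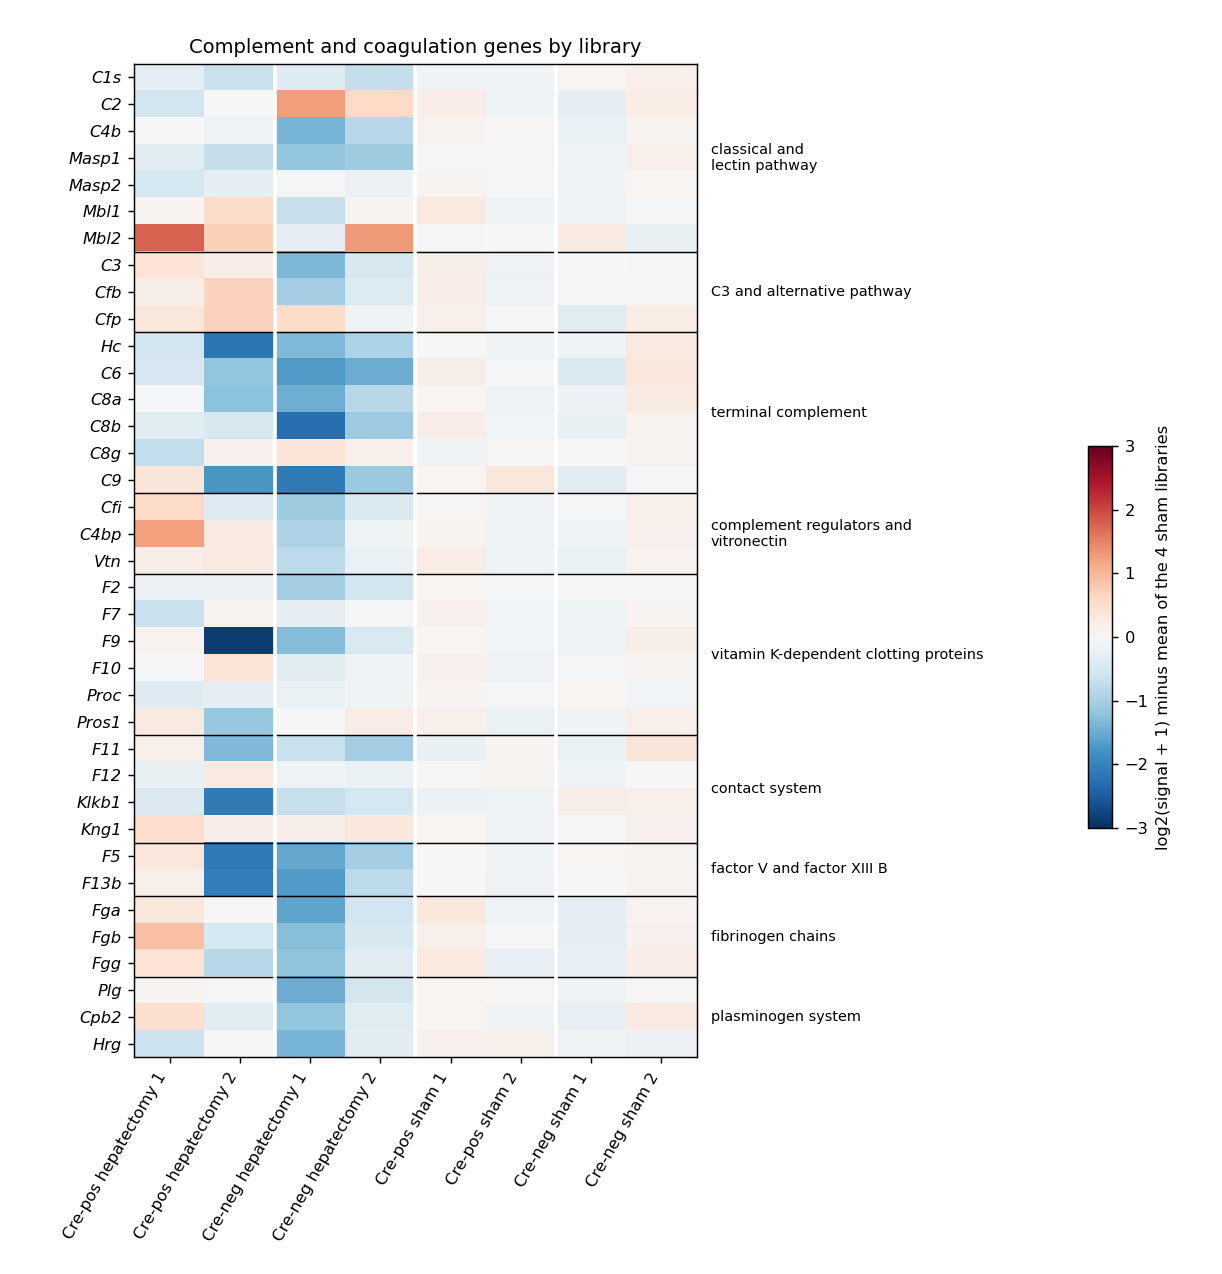
Each row is 1 of the 37 complement and coagulation genes without an exact 0, grouped by role, and each column 1 library, with colour giving log2(signal + 1) minus the mean of the 4 sham libraries. Blue covers most of the column of Cre-negative hepatectomy replicate 1, where 20 of 37 genes were lower by more than 1, and Cre-positive hepatectomy replicate 2 has 10 such genes, while replicate 1 of that group has 0.

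By library, the median member deviated from the sham mean by 0.09 and -0.27 (log2) in Cre-positive hepatectomy and by -1.04 and -0.43 in Cre-negative hepatectomy livers. The matching medians over all genes were -0.05 and 0.17 in Cre-positive and 0.28 and 0.15 in Cre-negative hepatectomy livers. The 38 genes together held 9.0% and 5.76% of the summed signal in Cre-positive and 3.99% and 5.80% in Cre-negative hepatectomy livers, against 8.04% and 6.85% in Cre-positive and 6.67% and 7.62% in Cre-negative sham livers. Cre-negative hepatectomy replicate 1 was the lowest library by both measures. Sham libraries lay close together, with no member more than 1 log2 unit from their mean.

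Among the 7 genes of the classical and lectin pathways, 1 fell in the averaged comparison. Masp1, which encodes lectin pathway proteases, was at 1076 and 834 in Cre-positive and 599 and 652 in Cre-negative hepatectomy livers, against 1316 and 1398 in Cre-positive and 1239 and 1509 in Cre-negative sham livers. Every hepatectomy library was below every sham library, and the Cre-negative ones were the lowest. The averaged log2 fold change was -0.82 (SE 0.16, adjusted p = 0.0381), which is 0.565 times the sham level on the log2(signal + 1) scale (95% interval 0.433 to 0.738). C4b, the fourth component, cleaved by C1s or by MASP2, was at 38606 and 35281 in Cre-positive and 14377 and 21369.8 in Cre-negative hepatectomy livers, against 41049 and 38822 in Cre-positive and 32926 and 39976 in Cre-negative sham livers. Only the Cre-negative hepatectomy libraries stood well below the others. Its log2 fold change was -0.58 (SE 0.18, adjusted p = 0.124) on average and -1.05 (SE 0.26, adjusted p = 0.103) in Cre-negative livers. C4b and C4a are near-identical copies, so reads may have been split between them.

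C1s, the protease of the C1 complex, ranged from 3215 to 4333 in hepatectomy and from 4897 to 5886 in sham livers. The groups did not overlap, but its averaged log2 fold change of -0.51 missed the threshold (SE 0.16, adjusted p = 0.125, limma). Copies of C1s in mouse also make its value uncertain. C2, the protease that joins C4b in the C3 convertase, was at 2065 and 2977 in Cre-positive and 7199 and 4606 in Cre-negative hepatectomy livers, against 3484 and 2752 in Cre-positive and 2452 and 3550.0 in Cre-negative sham livers. It was the member highest above sham in Cre-negative hepatectomy livers, with a log2 fold change of 0.96 (SE 0.33, adjusted p = 0.168). The isoform values below bear on this gene. Masp2, the lectin pathway protease that cleaves C4 and C2, ranged from 1531 to 2109.7 in hepatectomy and from 2044 to 2321 in sham livers. Mbl1, a mannose-binding lectin, ranged from 1377 to 3264 in hepatectomy and from 1999 to 2736 in sham livers, with overlap between the surgeries. Mbl2, the other mannose-binding lectin, was at 7248 and 3454 in Cre-positive and 1723 and 5089.8 in Cre-negative hepatectomy livers, against 2039 and 2114 in Cre-positive and 2561 and 1805 in Cre-negative sham livers. Cre-negative hepatectomy replicate 1 lay below the sham libraries and the other hepatectomy libraries above them, so the replicates of that group differed 2.95 times.

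None of the alternative pathway genes passed the threshold after hepatectomy. C3, the central component of all pathways, was at 260406 and 225866 in Cre-positive and 76917 and 139950 in Cre-negative hepatectomy livers, against 222854 and 176163 in Cre-positive and 195811 and 191904 in Cre-negative sham livers. It was highest in the Cre-positive and lowest in the Cre-negative hepatectomy livers, with log2 fold changes of 0.29 (SE 0.33, adjusted p = 0.707) in Cre-positive and -0.90 (SE 0.33, adjusted p = 0.184) in Cre-negative livers. Cfb, factor B, the protease of the alternative C3 convertase, was at 20000 and 28932 in Cre-positive and 8828 and 13427 in Cre-negative hepatectomy livers, against 20361 and 16221 in Cre-positive and 17414 and 17405 in Cre-negative sham livers. It was likewise lowest in the Cre-negative hepatectomy livers, while 1 of the Cre-positive hepatectomy libraries lay within the sham range. Cfp, properdin, which stabilises that convertase and is made mainly by myeloid cells, was at 260.0 and 328 in Cre-positive and 299 and 189 in Cre-negative hepatectomy livers, against 228 and 198 in Cre-positive and 159.5 and 239.6 in Cre-negative sham livers. Hepatectomy and sham libraries overlapped, with a log2 fold change of 0.37 (SE 0.23, adjusted p = 0.355) on average.

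Beside Cfp stand the marker lists of myeloid cells. Kupffer cell and macrophage markers (9 of 10 in the table) summed to 4155 and 4356 in Cre-positive and 2488 and 1793 in Cre-negative hepatectomy livers, against 2493 and 2402 in Cre-positive and 1642 and 2680 in Cre-negative sham livers, none of them at 0. Neutrophil and monocyte markers (12 of 12) summed to 532 and 473, 599 and 289.9, 629 and 147, and 787 and 519 in the same groups, with Camp, Ly6g and Mpo at 0 in some libraries. The part of these cells in the signal of Cfp was not tested.

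Cfd, factor D, which cleaves factor B and is made mainly by fat cells, was listed at an exact 0 in Cre-negative hepatectomy replicate 1, which can be a failed estimate. It was at 0.027 and 46.4 in Cre-positive hepatectomy livers, 8.95 in the other Cre-negative hepatectomy library, 0.346 and 0.558 in Cre-positive sham livers and 12.6 and 0.422 in Cre-negative sham livers. No fold change is given for it, and it is left out of every count over 37. The 8 adipocyte markers summed to 10343 and 2117 in Cre-positive and 5076 and 4131 in Cre-negative hepatectomy livers, against 9813 and 10896 in Cre-positive and 14335 and 12163 in Cre-negative sham livers, with Adipoq, Lep, Plin1 and Retn at 0 in some libraries. A marker at 0 adds nothing to the sum, so in some libraries it rests on fewer genes and may not follow fat cells. Only 5 of these 8 markers were tested in the comparisons. The sum was lowest in Cre-positive hepatectomy replicate 2, where Cfd was highest. The part of fat cells in the signal of Cfd was not tested.

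Of the 6 terminal complement genes, all were negative in the averaged comparison and 1 fell, with a median log2 fold change of -1.10. C6, which joins C5b at the start of pore assembly, was at 4036 and 2528 in Cre-positive and 1774 and 2036 in Cre-negative hepatectomy livers, against 6503 and 5497 in Cre-positive and 4218 and 7088 in Cre-negative sham livers. All hepatectomy libraries lay below all sham libraries, with the Cre-negative pair lowest. Its averaged log2 fold change was -1.21 (SE 0.24, adjusted p = 0.0343), or 0.431 times the sham level (95% interval 0.294 to 0.632). Within genotypes it was -0.90 (SE 0.33, adjusted p = 0.301) in Cre-positive and -1.52 (SE 0.33, adjusted p = 0.0762) in Cre-negative livers. C8b, the beta chain of C8, was at 5248 and 4814 in Cre-positive and 1405 and 3148 in Cre-negative hepatectomy livers, against 7762 and 6350.4 in Cre-positive and 5752 and 7319 in Cre-negative sham livers. The groups again did not overlap, yet the averaged log2 fold change of -1.05 (SE 0.27, adjusted p = 0.0746) missed the threshold.

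**Figure D2:**
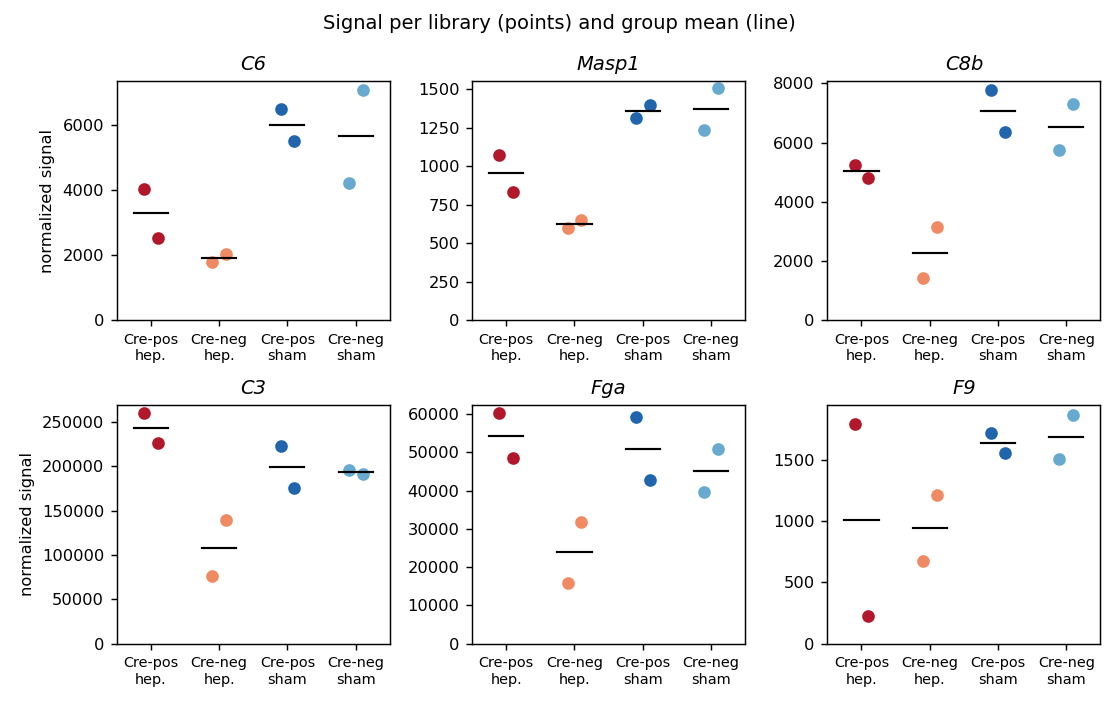
Normalized signal (linear axis from 0) of 6 genes in each library, as points, with the mean of the 2 libraries as a line, by group. C6, Masp1 and C8b have every hepatectomy point below every sham point, C3 and Fga are low in Cre-negative hepatectomy livers, and the F9 points of Cre-positive hepatectomy livers lie at 1792 and 227.

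Hc encodes C5, the parent of the C5a and C5b fragments, and was at 18983 and 6226 in Cre-positive and 11203 and 14448 in Cre-negative hepatectomy livers, against 27561 and 26017 in Cre-positive and 25306 and 33768 in Cre-negative sham livers. Both hepatectomy groups were below sham, but the Cre-positive replicates differed 3.05 times and the averaged log2 fold change was -1.25 (SE 0.34, adjusted p = 0.0907, limma). C8a, the alpha chain of C8, ranged from 3039 to 8213 in hepatectomy and from 7483 to 10198 in sham livers, and C9, the subunit that polymerises into the pore, from 4254 to 23497 in hepatectomy and from 14528 to 23179.7 in sham livers. Cre-positive hepatectomy replicate 1 lay within the sham range for C8a and above it for C9, and the other 3 hepatectomy libraries lay below it for both genes. C8g, the lipocalin-like gamma chain of C8, ranged from 2732 to 5971 in hepatectomy and from 4239 to 4901 in sham livers, and was the exception of this group, with an averaged log2 fold change of -0.018.

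Of the complement regulators and vitronectin 0 of 3 passed the threshold, and in all 3 both Cre-negative hepatectomy libraries lay below both Cre-negative sham libraries, as for 23.3% of all genes. Cfi, factor I, the protease that inactivates C3b and C4b, was at 15883 and 8111 in Cre-positive and 5097 and 7894 in Cre-negative hepatectomy livers, against 10839 and 9690.4 in Cre-positive and 10371 and 11822 in Cre-negative sham livers. Cre-positive replicate 1 was above and the other hepatectomy libraries below the sham range. Vtn, vitronectin, a plasma adhesion protein that also blocks the pore, was at 28803 and 30528 in Cre-positive and 14704 and 22125 in Cre-negative hepatectomy livers, against 29525 and 23127 in Cre-positive and 22318 and 27470.3 in Cre-negative sham livers. Log2 fold changes were -0.80 (SE 0.36, adjusted p = 0.252) for Cfi and -0.46 (SE 0.28, adjusted p = 0.37) for Vtn in Cre-negative livers. C4bp, the C4b-binding protein, a cofactor of factor I, was at 17175 and 8694 in Cre-positive and 3895 and 6727 in Cre-negative hepatectomy livers, against 7839 and 6782 in Cre-positive and 6884 and 8038 in Cre-negative sham livers. It was above sham in both Cre-positive and below sham in both Cre-negative hepatectomy libraries.

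Among the 6 vitamin K-dependent proteins 0 passed, and all 6 averaged log2 fold changes were negative (median -0.24). F2, prothrombin, the parent of thrombin, was at 23567 and 23301 in Cre-positive and 12817 and 18122 in Cre-negative hepatectomy livers, against 27397 and 25797 in Cre-positive and 26404 and 26174 in Cre-negative sham livers. All hepatectomy libraries lay below all sham libraries, with a log2 fold change of -0.48 (SE 0.17, adjusted p = 0.146) on average and -0.79 (SE 0.24, adjusted p = 0.138) in Cre-negative livers. F9, factor IX, was at 1792 and 227 in Cre-positive and 673 and 1211 in Cre-negative hepatectomy livers, against 1717 and 1551 in Cre-positive and 1500.3 and 1864 in Cre-negative sham livers. Its averaged log2 fold change of -1.12 (SE 0.59, adjusted p = 0.282) rests on Cre-positive replicate 2 and on the Cre-negative libraries, since Cre-positive replicate 1 lay within the sham range. Without Cre-positive hepatectomy replicate 1 the averaged value was -1.86 (adjusted p = 0.00433, limma).

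Proc, protein C, the anticoagulant protease that inactivates factors V and VIII, ranged from 4033 to 4804 in hepatectomy and from 4985 to 5597 in sham livers, without overlap. Its cofactor protein S, Pros1, ranged from 419 to 1122 in hepatectomy and from 808 to 1037 in sham livers, where the lowest library was Cre-positive hepatectomy replicate 2. F7, factor VII, which starts coagulation with tissue factor, ranged from 645 to 1113 in hepatectomy and from 942 to 1124 in sham livers, and F10, factor X, which makes thrombin from prothrombin, from 4726 to 7869 in hepatectomy and from 5407 to 6580.4 in sham livers. Hepatectomy and sham libraries of these 3 genes overlapped.

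In the contact system 0 of 4 genes passed. Klkb1, plasma prekallikrein, was at 1372 and 423 in Cre-positive and 1141 and 1279 in Cre-negative hepatectomy livers, against 1633 and 1672 in Cre-positive and 2074 and 2043 in Cre-negative sham livers. All hepatectomy libraries were below sham, the lowest by far being Cre-positive replicate 2, and the averaged log2 fold change was -0.94 (SE 0.34, adjusted p = 0.161). F11, factor XI, was at 2116 and 764 in Cre-positive and 1205 and 941 in Cre-negative hepatectomy livers, against 1620.4 and 2016 in Cre-positive and 1648 and 2429 in Cre-negative sham livers, with a log2 fold change of -0.71 (SE 0.33, adjusted p = 0.238) on average. Its Cre-positive hepatectomy replicates differed 2.77 times. F12, factor XII, ranged from 5508 to 7792 in hepatectomy and from 5932 to 6828 in sham livers. Kng1, high molecular weight kininogen, the source of bradykinin, was at 44108 and 35050.5 in Cre-positive and 34638 and 38368 in Cre-negative hepatectomy livers, against 31630 and 27626 in Cre-positive and 30109 and 33161 in Cre-negative sham livers, above sham in all 4 hepatectomy libraries, with a log2 fold change of 0.31 (SE 0.16, adjusted p = 0.282, limma). Kng1 and Kng2 are close copies that can share reads.

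F5, the cofactor of factor Xa, and F13b, the carrier subunit of the fibrin cross-linking factor XIII, had one and the same pattern of libraries. F5 was at 6474 and 1165 in Cre-positive and 1758 and 2476 in Cre-negative hepatectomy livers, against 5025 and 4630.3 in Cre-positive and 5316 and 5362 in Cre-negative sham livers, and F13b was at 2873 and 619 in Cre-positive and 796 and 1498 in Cre-negative hepatectomy livers, against 2603 and 2316 in Cre-positive and 2611 and 2771 in Cre-negative sham livers. Cre-positive replicate 1 was above the sham range for each gene, and the other 3 hepatectomy libraries were below it. Averaged log2 fold changes were -1.08 (SE 0.48, adjusted p = 0.222) for F5 and -1.09 (SE 0.46, adjusted p = 0.205) for F13b.

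For the fibrinogen chains 0 of 3 passed the threshold. Fga, the alpha chain, whose promoter holds the HNF1 core and the C/EBP motif shown above, was at 60196 and 48429 in Cre-positive and 15939 and 31736 in Cre-negative hepatectomy livers, against 59328 and 42631 in Cre-positive and 39570.3 and 50859 in Cre-negative sham livers. The Cre-negative hepatectomy libraries were the lowest. Fgb, the beta chain, was at 142101 and 52054 in Cre-positive and 31252 and 54072 in Cre-negative hepatectomy livers, against 84500.1 and 74308 in Cre-positive and 62848 and 82670 in Cre-negative sham livers. Fgg, the gamma chain, was at 112278 and 47364 in Cre-positive and 36279.8 and 68140.3 in Cre-negative hepatectomy livers, against 103607 and 71438 in Cre-positive and 70970.3 and 96206 in Cre-negative sham livers. For the beta and gamma chains Cre-positive replicate 1 lay above the sham range and the other 3 hepatectomy libraries below it. Log2 fold changes in Cre-negative livers were -0.996 (SE 0.37, adjusted p = 0.191) for Fga and -0.73 (SE 0.49, adjusted p = 0.409) for Fgg, and averaged ones -0.45 (SE 0.26, adjusted p = 0.325) for Fga and -0.49 (SE 0.34, adjusted p = 0.4) for Fgg.

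The 3 chains are assembled in equal number, and their relative signal was compared across libraries. The ratio of Fgb to Fga signal was 2.36 and 1.07 in Cre-positive and 1.96 and 1.70 in Cre-negative hepatectomy livers, against 1.42 and 1.74 in Cre-positive and 1.59 and 1.63 in Cre-negative sham livers. Fgg to Fga gave 1.87 and 0.978, 2.28 and 2.15, 1.75 and 1.68, and 1.79 and 1.89 in the same groups. The lowest of both ratios was in Cre-positive hepatectomy replicate 2. Acute phase genes (12 of 12), a class that includes fibrinogen in the injured liver, summed to 288922 and 575094 in Cre-positive and 196740 and 164843 in Cre-negative hepatectomy livers, against 251214 and 209637 in Cre-positive and 136935 and 188499 in Cre-negative sham livers. Their part in the fibrinogen values was not tested.

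The plasminogen system had 0 of 3 genes past the threshold, all 3 with negative averaged log2 fold changes (median -0.50). Plg, plasminogen, the precursor of plasmin, was at 44644 and 40414 in Cre-positive and 14989 and 28910 in Cre-negative hepatectomy livers, against 44115 and 43327 in Cre-positive and 38198 and 43327 in Cre-negative sham livers. Its log2 fold change was -0.042 (SE 0.32, adjusted p = 0.964) in Cre-positive and -0.97 (SE 0.32, adjusted p = 0.161) in Cre-negative livers, and -0.50 (SE 0.23, adjusted p = 0.228) on average. Hrg, the histidine-rich glycoprotein, which binds plasminogen, was at 6013 and 9041 in Cre-positive and 3609 and 7626 in Cre-negative hepatectomy livers, against 10315 and 10496 in Cre-positive and 8792 and 8355 in Cre-negative sham livers, with a log2 fold change of -0.60 (SE 0.26, adjusted p = 0.217) on average. Cre-negative replicate 1 was the lowest library for both genes. Cpb2, the carboxypeptidase that slows fibrin breakdown, ranged from 2932 to 9306 in hepatectomy and from 5664 to 8051 in sham livers.

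**Figure D3:**
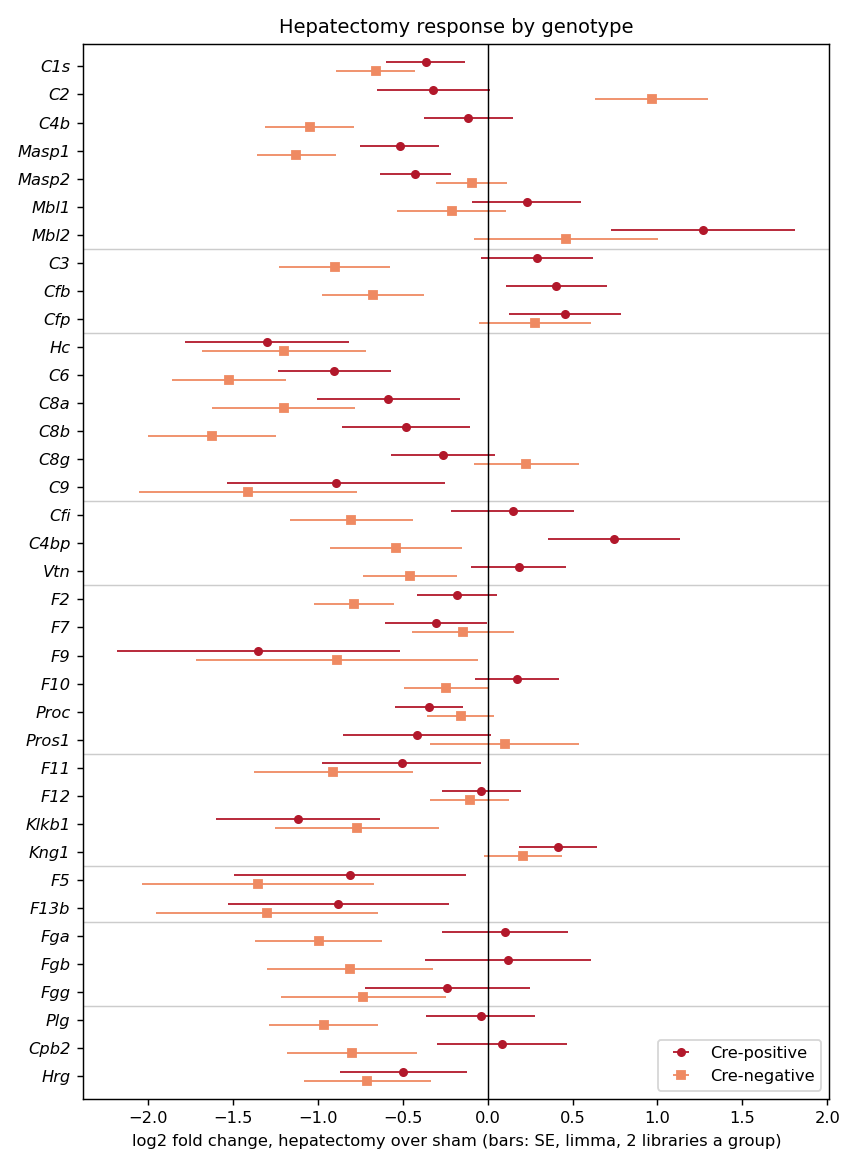
Log2 fold change of hepatectomy over sham for 37 genes in Cre-positive (dark circles) and Cre-negative (light squares) livers, with bars for the limma standard error and 2 libraries a group. Most squares lie left of 0, with a median of -0.77, and C2 is the square farthest to the right.

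The effect of genotype was 0 of 37 called in sham livers, against 0.00609% of all genes, with 0 at an unadjusted p under 0.05 and a median log2 fold change of 0.03. After hepatectomy 0 of 37 were called, against 0.0183% of all genes (0.00609% higher and 0.0122% lower in Cre-positive livers), and 11 had an unadjusted p under 0.05. Of these 10 were higher in Cre-positive livers (C4b, Cfb, C3, Fga, C8b, C4bp, Plg, F2, Vtn and Masp1), a class of 5.93% of all genes, and C2 was lower, a class of 12.6%. The members' median log2 fold change was 0.51, against -0.23 for all genes, and 28 of 37 were positive. Both Cre-positive libraries lay above both Cre-negative libraries for 15 members, against 14.2% of all genes, and below them for 4 (C2, Masp2, C8g and Proc), against 26.3% of all genes. Among these C4b had a log2 fold change of 1.07 (SE 0.26, adjusted p = 0.131), Fga of 1.26 (SE 0.37, adjusted p = 0.168), C3 of 1.23 (SE 0.33, adjusted p = 0.148) and C2 of -1.22 (SE 0.33, adjusted p = 0.151). Averaged over surgeries 0 of 37 were called (0.00610% of all genes), with 7 at an unadjusted p under 0.05 (8.79% of all genes). Without Cre-positive hepatectomy replicate 1 the hepatectomy comparison called 4 (Cfb rose, F9, Pros1 and Klkb1 fell), where 10.8% of all genes fell.

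The difference of the hepatectomy responses, Cre-positive minus Cre-negative, was called for 0 of 37 members, against 0.00610% of all genes. Without adjustment 5 had a p under 0.05 (C2, C3, Cfb, C4b and C4bp), against 8.25% of all genes (2.83% higher and 5.41% lower). The difference was 1.19 (SE 0.47, adjusted p = 0.58) for C3, 1.28 (SE 0.55, adjusted p = 0.606) for C4bp and -1.28 (SE 0.47, adjusted p = 0.578) for C2. A different response of the 2 genotypes was thus not shown for any of the 37 genes at this threshold. Their median difference was 0.49, against -0.20 for all genes. Without Cre-positive hepatectomy replicate 1 this comparison called 1 member, Klkb1, where 4.33% of all genes fell. The comparisons named here share libraries, and their values are therefore not independent of each other.

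Transcript GC content moved with the values of single libraries. It was known for 37 members, between 39% and 58.1%, and for 96.5% of the genes tested. In the class under 45% GC, the median log2 difference from the sham mean was 0.36 and -1.15 over 9 members in Cre-positive hepatectomy and -1.22 and -0.45 in Cre-negative hepatectomy livers. Over all 2974 genes of the class it was -0.001 and -1.15 in Cre-positive and 0.008 and -0.05 in Cre-negative hepatectomy livers. The members' median in Cre-positive hepatectomy replicate 2 was thus close to that of all genes of the class, but F9 (-2.86), Klkb1 (-2.12), F13b (-2.05) and C9 (-1.74) lay well below it. In the class of 45% to 50% GC, which holds C6 and Masp1, 15 members had medians of 0.08 and -0.49 in Cre-positive and -1.32 and -0.72 in Cre-negative hepatectomy livers, against -0.02 and -0.15 in Cre-positive and 0.07 and 0.04 in Cre-negative hepatectomy livers for all 4391 genes. Of the 10 members lower by more than 1 in Cre-positive hepatectomy replicate 2, Hc (-2.17), F5 (-2.12), F11 (-1.31), C8a (-1.24) and C6 (-1.18) were in this class. Their GC content lay between 45.5% and 47.1%, in the lower part of the class. With 50% GC or more, 13 members had medians of -0.17 and 0.14 in Cre-positive and -0.30 and -0.18 in Cre-negative hepatectomy livers, against -0.09 and 0.54 in Cre-positive and 0.45 and 0.28 in Cre-negative hepatectomy livers for all 8502 genes. With values centred within GC classes, C6 and Masp1 passed in the averaged comparison (log2 fold change -1.14, adjusted p = 0.0195, and -0.84, adjusted p = 0.0184, limma). With that setting 2.71% of all genes fell, against 0.927% in the main fit. The part of GC content in the values of C6, Masp1 and the other members was not tested.

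**Figure D4:**
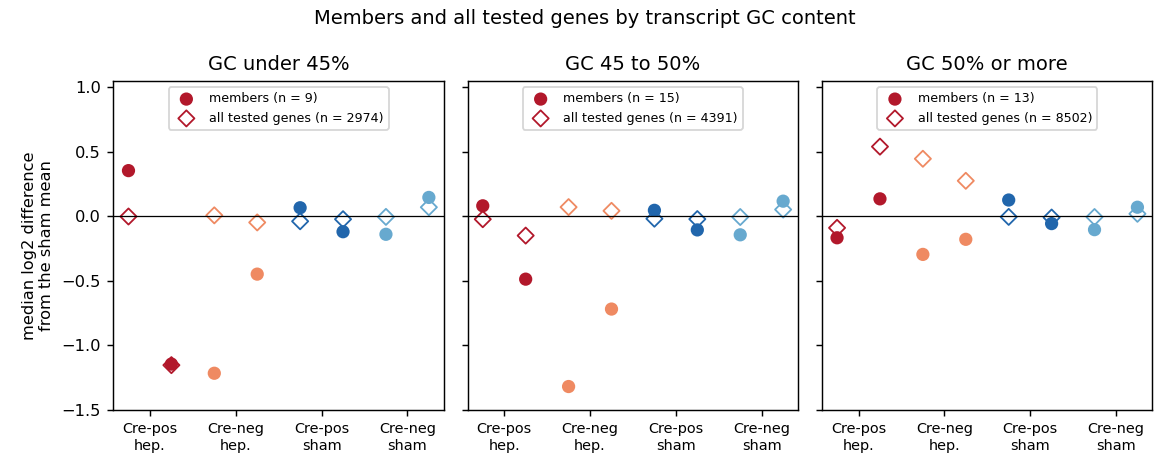
Median log2 difference from the mean of the 4 sham libraries, by library and group, for members (filled circles) and all tested genes (open diamonds) in 3 classes of transcript GC content. Under 45% GC, circle and diamond of Cre-positive hepatectomy replicate 2 coincide at -1.15, while in Cre-negative hepatectomy livers the circles lie below the diamonds in each class.

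Other cell type markers were read beside the members. Of 20 hepatocyte markers 19 were in the table, and Alb, the albumin gene, was listed at 0 in 7 of 8 libraries. The other 18 summed to 1350220 and 2283210 in Cre-positive and 563602 and 783010 in Cre-negative hepatectomy livers, against 1027240 and 1077250 in Cre-positive and 938133 and 1019270 in Cre-negative sham livers. Hpx alone gave 341076 and 1452240 of the sums in Cre-positive hepatectomy livers. Like the members, these markers were lowest in the Cre-negative hepatectomy livers. Stellate cell markers (9 of 9) summed to between 1355 and 1889 in hepatectomy and between 2292 and 3134 in sham livers, and endothelial markers (9 of 9) to between 1649 and 3737 in hepatectomy and between 3399 and 4384 in sham livers, none at 0. B and T cell markers (7 of 7) stayed under 48.8 and erythroid markers (4 of 6 in the table) lay between 743 and 1996. The part of any of these cells in the members' values was not tested.

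Gene values are sums over isoforms, and the deposited isoform table holds 119 isoforms of the 38 genes. Of the genes, 12 had 1 isoform and 26 had several, and in 15 of the 26 the same isoform led in all 8 libraries. The limma fit was repeated over all isoforms of the table, a step added after the data had been seen, and 116 member isoforms were tested. In Cre-negative livers 8 member isoforms rose and 11 fell after hepatectomy, against 1.60% and 2.97% of all isoforms (4.57% in either direction). In Cre-positive livers 0 passed, and 0 of all isoforms did. Between genotypes after hepatectomy 8 were higher and 11 lower in Cre-positive livers, against 3.54% and 1.75% of all isoforms (5.29% in either direction), and in sham 0 passed. With genotype averaged over surgery 2 were higher and 1 lower in Cre-positive livers, against 0.679% and 0.186% (0.865% in either direction). The response to hepatectomy differed between genotypes in 1 isoform upward (C1s-204) and 2 downward (C1s-203 and C8b-003), against 0.746% and 0.180% (0.926% in either direction). So at this level more member isoforms than genes passed, in both directions within a gene.

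C2 is an example. Isoform C2-011 was at 484 and 669 in Cre-positive and 6174 and 3342 in Cre-negative hepatectomy livers, against 1179.6 and 746 in Cre-positive and 300.5 and 1186 in Cre-negative sham livers, and C2-001 was at 1420.2 and 2178 in Cre-positive and 117 and 504 in Cre-negative hepatectomy livers, against 1924 and 1744 in Cre-positive and 1994 and 2037 in Cre-negative sham livers. C2-011 made up most of the C2 signal in Cre-negative hepatectomy livers, and C2-001 elsewhere. C2-001 fell by 3.05 (log2) in Cre-negative livers (SE 0.63, adjusted p = 0.0475), while C2-011 missed the threshold (2.92, SE 0.66, adjusted p = 0.0596, limma). With C2-011 left out, the C2 signal was 1581 and 2308 in Cre-positive and 1026 and 1265 in Cre-negative hepatectomy livers, against 2304 and 2005 in Cre-positive and 2152 and 2364 in Cre-negative sham livers. The rest of the signal was lowest in Cre-negative hepatectomy livers. As C2-011 was chosen for its high values there, leaving it out lowers that group most in any case. The change of order is therefore not a result about C2. C2 and Cfb are neighbours in the genome, and the labels do not say whether strand was kept.

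The Kng1 isoform with the largest share of the gene's signal in both Cre-negative hepatectomy libraries was at 6995 and 5642 in Cre-positive and 17979.7 and 13341 in Cre-negative hepatectomy livers, against 4228 and 4002 in Cre-positive and 4568 and 4568 in Cre-negative sham livers. It rose by 1.76 (log2) in Cre-negative livers (SE 0.24, adjusted p = 0.0136) and was lower in Cre-positive than in Cre-negative hepatectomy livers by a log2 fold change of -1.30 (SE 0.24, adjusted p = 0.0308, limma). Its 2 Cre-negative sham values were identical (4568.41), one of the shared values described above, and so added no spread to these standard errors. The rest of the Kng1 signal was 37113 and 29409 in Cre-positive and 16658 and 25027 in Cre-negative hepatectomy livers, against 27402 and 23624 in Cre-positive and 25541 and 28593 in Cre-negative sham livers. C8g-002 was at 615 and 739.6 in Cre-positive and 3673 and 2063 in Cre-negative hepatectomy livers, against 1284 and 1514 in Cre-positive and 1319 and 1839.7 in Cre-negative sham livers. The 3 members above sham in Cre-negative hepatectomy livers thus each had an isoform at its highest there. This was not particular to them, since members below sham there had such isoforms too, among them Cfb-005, given below, and C4b-002. C4b-002 was at 239 and 128 in Cre-positive and 1222 and 775 in Cre-negative hepatectomy livers. In sham livers it was at 244 and 123 in Cre-positive and 120 and 164 in Cre-negative livers.

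**Figure D5:**
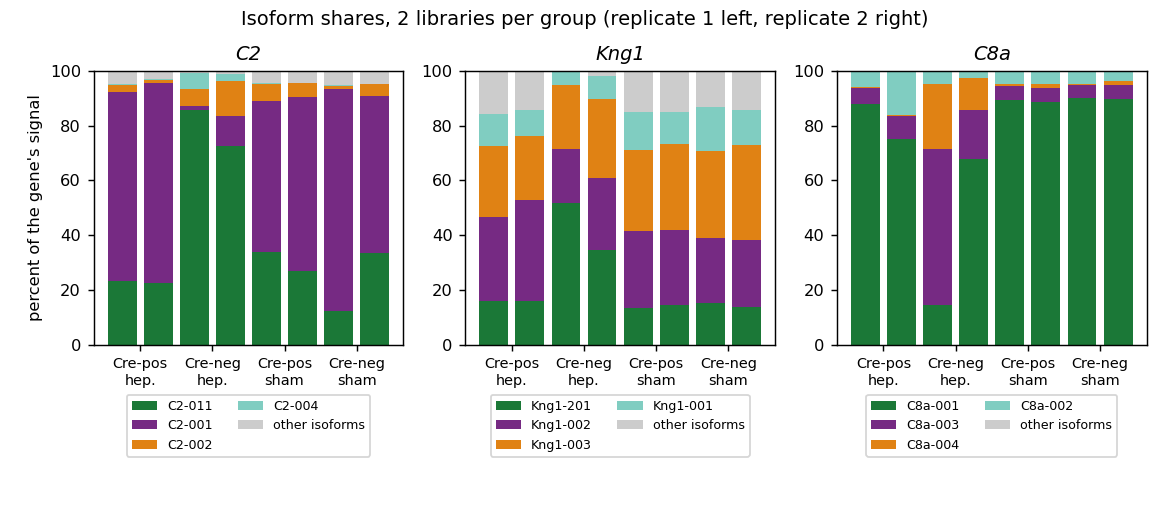
Percent of each gene's signal given by its isoforms in the 8 libraries, for C2, Kng1 and C8a, as stacked bars with replicate 1 left of replicate 2. C2-011 and the Kng1 isoform described above take their largest shares in the Cre-negative hepatectomy livers, and C8a-001 its smallest share in replicate 1 of that group.

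In Cfb, Cfb-005 was at 315 and 808 in Cre-positive and 3554 and 2772 in Cre-negative hepatectomy livers, against 578 and 368 in Cre-positive and 410.2 and 471 in Cre-negative sham livers. Cfb-201 was at 2892 and 5985 in Cre-positive and 139.7 and 669.9 in Cre-negative hepatectomy livers, against 3405 and 2139.5 in Cre-positive and 2708 and 2190.0 in Cre-negative sham livers. One isoform was thus high where the other was low, and both differed between genotypes after hepatectomy (log2 fold change -2.63, SE 0.48, adjusted p = 0.0308, and 3.76, SE 0.73, adjusted p = 0.0371, limma). C6-002 was at 395 and 39.9 in Cre-positive and 0.107 and 0.161 in Cre-negative hepatectomy livers, against 843 and 491 in Cre-positive and 340.1 and 719 in Cre-negative sham livers. It was near 0 in the Cre-negative hepatectomy libraries, and C6-001, the leading isoform, was at 2789.7 and 1951 in Cre-positive and 1722 and 1778 in Cre-negative hepatectomy livers, against 4309 and 3868 in Cre-positive and 2813 and 4717 in Cre-negative sham livers. C1s-203 and C1s-204 traded places between genotypes after hepatectomy. C1s-203 was at 5.02e-18 and 0.0236 in Cre-positive and 576 and 608 in Cre-negative hepatectomy livers, against 105 and 105 in Cre-positive and 656 and 181 in Cre-negative sham livers, and C1s-204 at 783 and 747 in Cre-positive and 0.039 and 0.0583 in Cre-negative hepatectomy livers, against 141 and 57.8 in Cre-positive and 159 and 51.5 in Cre-negative sham livers. Such a switch between libraries of like total was not checked against reads, and the structures of these isoforms were not used here.

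Isoform calls rested on single libraries. The 19 of the Cre-negative comparison became fewer when any 1 sham library was left out, and so did the calls over all isoforms. Calls were also fewer without Cre-negative hepatectomy replicate 1 and more without replicate 2 of that group, among the members and over all isoforms alike. Without replicate 1, some of the calls were not among the 19. The 19 of the genotype comparison after hepatectomy became fewer when either Cre-positive hepatectomy library, Cre-negative hepatectomy replicate 1 or any 1 sham library was left out. They became more without Cre-negative hepatectomy replicate 2. The calls over all isoforms moved the same way, except without Cre-positive hepatectomy replicate 1, where they became more. Averaged over genotypes 3 isoforms rose and 2 fell (0.829% and 0.947% of all isoforms, 1.78% in either direction). These calls did not hold when any 1 sham library was left out, and neither did those over all isoforms.

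The rest of both pathways was read from lists chosen with earlier results of these data known. Of 25 other complement genes tested, 0 rose and 1 fell in the averaged comparison, with a median log2 fold change of -0.46. That gene was Colec10, a collectin that can start the lectin pathway, at 52.2 and 11.6 in Cre-positive and 42.2 and 59.9 in Cre-negative hepatectomy livers, against 181 and 147 in Cre-positive and 181 and 218 in Cre-negative sham livers. It fell by 2.31 (log2; SE 0.44, adjusted p = 0.0317, limma). Of 29 other coagulation and fibrinolysis genes tested, 0 rose and 0 fell in any hepatectomy comparison, with 6 at an unadjusted p under 0.05 in the averaged one (24.0% of all genes) and a median of -0.18.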

How the data were processed

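Whole-liver RNA was sequenced on a HiSeq2000 after TruSeq library preparation, per the labels. TopHat and Cufflinks with the mm9 and NCBIM37 references are named in the submitters' processing notes, without versions. The authors deposited normalized signal values for genes and for isoforms. How they were scaled is not stated in the labels, and the library sums do not give depth. Each gene equals the sum of its isoforms to within a signal of 7.4e-05. The values are not whole numbers, so no count test was used.

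Values were taken as log2(signal + 1). Of 34465 genes, the 16443 with a mean signal of at least 1 were fitted with limma 3.58.1 in R 4.3.3 (group means over all 8 libraries, empirical Bayes with an intensity trend, 4 residual and 3.38 prior degrees of freedom). P-values are two-sided and Benjamini-Hochberg adjusted over all genes of a comparison, at 0.05. Standard errors are limma's. An exact 0 in a gene that reached 100 elsewhere was treated as missing (105 genes). Cfd, which has an exact 0 but stayed under that level, was fitted as listed and is given by library only. There were 7 comparisons. The code was tested on simulated data.

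Full statistics are given for genes past the threshold in a role and otherwise for up to 2 genes per role; C2, C4bp, Hc, C1s, Kng1 and the other genes given with statistics beyond that were chosen after their values were seen. The members and gene lists were chosen with earlier results of these data known. The isoform fit, over all 96792 isoforms of the table before the same filter, was added after the data were seen, and the isoforms named were chosen by their values. Alternatives were other filters, pseudocounts, scalings, weights and models, and leaving out each library. Promoter coordinates are GRCm38.p6 and were not joined to mm9 coordinates.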

Additional observations from a re-analysis of the deposited data

Results flagged for a closer look

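In 3 isoforms of complement genes the hepatectomy response differed between genotypes, by the limma test of the difference itself (Cre-positive minus Cre-negative) over all isoforms, a test added after the data were seen. For C1s-203 the difference was -7.49 on the log2(signal + 1) scale (SE 0.83, adjusted p = 0.0189), and for C1s-204 it was 9.51 (SE 0.91, adjusted p = 0.0137). For C8b-003, at 1.49 and 0.0372 in Cre-positive and 407 and 105 in Cre-negative hepatectomy livers, against 0.295 and 0.904 in Cre-positive and 0.637 and 0.00845 in Cre-negative sham livers, it was -7.31 (SE 1.16, adjusted p = 0.0498). Each isoform was near 0 in at least 1 group, so the size of these differences depends on the added 1. The 2 Cre-positive sham values of C1s-203 were identical (104.949) and added no spread to its standard error. Over all isoforms 0.746% had a higher and 0.180% a lower response. These 3 differences did not hold when any 1 sham library or Cre-positive hepatectomy replicate 2 was left out. Calls over all isoforms also became fewer in each of these settings. No whole gene of the set differed in this way.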

How the results depend on the processing

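No paired analysis was possible because the labels number the samples through the series and give the groups no shared replicate numbers. In the averaged hepatectomy comparison, the 2 calls became 0 with no filter on low values, 0 with no intensity trend, 0 with array weights and 1 (C6) with quantile normalization, and ranged from 0 to 13 with 1 library left out. C6 passed in 9 of 19 alternatives (adjusted p from 0.00775 to 0.158) and Masp1 in 9 of 19 (0.00546 to 0.188), limma; both were negative in all of them. In Cre-negative livers the 0 calls became 2 with array weights and 2 with values centred in GC classes. Over all genes 1.29% fell with array weights and 1.14% with GC centring, against 0.201% in the main fit. With 1 library left out, calls changed within each genotype, between genotypes after hepatectomy, for genotype averaged over surgery and for the difference of responses. Each was highest without Cre-positive hepatectomy replicate 1, where the share of all genes that fell was also highest.

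With 1 library left out, the median member change ranged from -0.35 to 0.03 (Cre-positive), -1.04 to -0.42 (Cre-negative), 0.24 to 0.88 (genotype after hepatectomy) and 0.27 to 0.82 (difference of responses). Member isoforms called ranged from 0 to 7 (Cre-positive), 0 to 46 (Cre-negative), 0 to 37 (averaged hepatectomy), 7 to 54 (genotype after hepatectomy), 0 to 33 (genotype averaged) and 0 to 31 (difference of responses). In each of these comparisons the most member isoforms were called without the same library as gave the most calls over all isoforms. The upper ends are therefore not a result about the members alone. Whether members were called more often than other isoforms there was not tested. Where a group was left with 1 library, that library was assumed to vary like the others. The all-gene median in Cre-negative livers moved from 0.21 to -0.002 with median-of-ratios scaling and -0.044 with quantile normalization; the members' median was then -0.995 and -0.53. Over the genes named, 662 alternative values stayed on their side of the threshold, 20 newly passed it and 20 no longer did. The sign changed in 4 values, none past the threshold: averaged Vtn (0.026 with quantile normalization, 0.01 without Cre-negative hepatectomy replicate 1) and Cfp in Cre-negative livers (-0.052 without Cre-negative hepatectomy replicate 1, -0.013 without Cre-negative sham replicate 1). The cause of these changes was not tested. Depth is unknown, so no counting error can be given.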

Other observations

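Some genes outside the 38 members were read from the other lists chosen with earlier results of these data known, and they are given as values only. The 2 single genes below do not stand for their lists. After hepatectomy in Cre-positive livers, 11 of 18 tested hepatocyte markers were positive and 7 negative (median log2 fold change 0.041). Of 25 other complement genes, 9 were positive and 16 negative there (median -0.345). Ahsg, fetuin-A, a hepatocyte plasma protein, was at 204710 and 192773 in Cre-positive and 46945 and 88568 in Cre-negative hepatectomy livers, against 88568 and 99175 in Cre-positive and 87077 and 80495 in Cre-negative sham livers. C1qb, a chain of C1q made by macrophages, was at 488 and 549.7 in Cre-positive and 229 and 202 in Cre-negative hepatectomy livers, against 262 and 226 in Cre-positive and 209.5 and 292 in Cre-negative sham livers. The 8 liver transcription factors listed for these genes summed to 8626 and 7823 in Cre-positive and 5135 and 6263 in Cre-negative hepatectomy livers, against 9015 and 7529 in Cre-positive and 7869 and 7514 in Cre-negative sham livers. Their part in the members' values was not tested.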
